A study of Mus musculus with 12 samples.

Results

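The Myc locus was taken as chr15:61000000-63500000 of the mm10 mouse genome, a stretch of 2.5 Mb that holds the proto-oncogene Myc and the gene-poor sequence on both sides of it. Its members were all peaks of the deposited accessibility table that lie in this stretch, 214 of 176680 peaks, chosen by position alone. ATAC-seq was used to read accessibility, since the transposase Tn5 cuts and tags DNA where chromatin is open. The 12 libraries came from wild-type C57BL/6N primary mouse embryonic fibroblasts (MEFs), harvested at embryonic day 13.5 and collected on day 2 of transgene induction with 2 µg/ml doxycycline. They fell into 4 groups of 3, and every group received lentivirus for the transactivator rtTA. MEF received nothing further, Prox1_OE also received FLAG-tagged mouse Prox1, 4in1_GFP_OE received the 4in1 cassette of hepatocyte reprogramming factors with GFP, and 4in1_Prox1_OE received 4in1 with Prox1. The table compares the last 2 groups, so the values below rest on 6 libraries, and the MEF and Prox1_OE groups were not analysed here. All transgenes were virally delivered and the cultures were profiled in bulk. A lower value can therefore come from fewer cells with an open site or from less opening per cell, which cannot be told apart.

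Myc is a basic helix-loop-helix leucine zipper transcription factor that pairs with Max, binds E-box sequences and drives genes of growth, ribosome production and the cell cycle. It sits in a gene desert in which separate enhancers, some of them far from the gene, serve different tissues. Pvt1, a long noncoding RNA gene, starts downstream of Myc and holds many regulatory elements in its introns. Prox1 is a homeodomain factor of hepatocytes and of other cell types such as lymphatic endothelium.

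On the GENCODE M21 annotation, Myc spans chr15:61985391-61990374 on the plus strand and Pvt1 spans chr15:62037986-62378096 on the same strand. Distances are given from the first base of Myc to the peak centre, negative upstream. The locus was divided by position into the upstream desert (60 peaks over 975 kb), the Myc neighbourhood (the gene with 10 kb on each side, 8 peaks), the Pvt1 segment (the rest of the sequence to the end of Pvt1, 60 peaks) and the downstream desert (86 peaks). Peaks were denser here than over the genome, at 85.6 against 64.8 per Mb. The density reached 320 per Mb around Myc and 159 per Mb in the Pvt1 segment, and it was 61.5 and 76.7 per Mb in the upstream and downstream deserts. The median gap between neighbouring peaks was 6.51 kb and the widest was 91.2 kb, between the peaks at +1086.7 and +1178.1 kb. By annotation, 124 peaks were intronic, 85 intergenic, 4 in exons of noncoding genes and 1 in the untranslated first exon of Myc.

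The sequences of 6 peak windows of 201 bases each are shown because they stand for the kinds of change described below. They were read from the plus strand of GRCm38.p6, 5′ to 3′, with matches to the searched motifs in capitals. These motifs were AP-1 (TGANTCA, bound by Fos and Jun proteins), TEAD (GGAATG, the factors of the Hippo pathway), the E-box (CACGTG), FOXA (TGTTTAC, pioneer factors of the liver), RUNX (TGTGGTT), HNF4, CTCF and Prox1, all on both strands.
Peak at +133.8 kb (chr15:62119124-62119324): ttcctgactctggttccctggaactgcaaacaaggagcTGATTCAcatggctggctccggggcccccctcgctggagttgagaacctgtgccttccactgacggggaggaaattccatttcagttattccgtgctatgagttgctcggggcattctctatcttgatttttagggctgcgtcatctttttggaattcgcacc
Peak at +343.2 kb (chr15:62328462-62328662): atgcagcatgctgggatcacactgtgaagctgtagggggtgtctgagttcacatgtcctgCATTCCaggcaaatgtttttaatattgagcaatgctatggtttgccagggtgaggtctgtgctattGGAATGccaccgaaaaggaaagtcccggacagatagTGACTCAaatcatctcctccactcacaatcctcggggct
Peak at -531.2 kb (chr15:61454102-61454302): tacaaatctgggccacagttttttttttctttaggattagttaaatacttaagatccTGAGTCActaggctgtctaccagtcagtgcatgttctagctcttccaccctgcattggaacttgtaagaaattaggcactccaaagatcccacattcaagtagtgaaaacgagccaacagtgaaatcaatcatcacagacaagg
Peak at +360.0 kb (chr15:62345257-62345457): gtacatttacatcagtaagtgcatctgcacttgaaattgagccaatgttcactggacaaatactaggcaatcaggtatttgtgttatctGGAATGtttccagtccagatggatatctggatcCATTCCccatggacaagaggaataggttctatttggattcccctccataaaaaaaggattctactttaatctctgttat
Peak at +917.8 kb (chr15:62903075-62903275): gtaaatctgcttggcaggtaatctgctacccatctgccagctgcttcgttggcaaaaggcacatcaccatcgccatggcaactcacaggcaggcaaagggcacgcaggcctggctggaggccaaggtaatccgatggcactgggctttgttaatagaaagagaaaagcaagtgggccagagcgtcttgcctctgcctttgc
Peak at -55.2 kb (chr15:61930130-61930330): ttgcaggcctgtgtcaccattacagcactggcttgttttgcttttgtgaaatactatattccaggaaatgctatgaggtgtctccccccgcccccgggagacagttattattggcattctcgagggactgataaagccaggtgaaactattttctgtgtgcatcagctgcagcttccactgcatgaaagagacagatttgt
The first was the highest peak of the locus with GFP and carries 1 AP-1 match. The second was the highest peak outside promoters with Prox1 and carries 2 TEAD matches and 1 AP-1 match. The third had the most negative difference and the fourth the most positive. The fifth had the highest level with Prox1 among peaks that were at least 2-fold higher, and the sixth was the peak of that class nearest to Myc. Neither of these last peaks holds a searched motif.

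The table gives, for each peak, the authors' mean of normalized reads in each group as a log2 concentration, with no value per library. No standard deviation or test between replicates could therefore be computed, and the p-values of the authors' own comparison were not used. Each value below is the authors' mean over the libraries of a group. A peak is called lower or higher where the concentration in 4in1_Prox1_OE minus that in 4in1_GFP_OE is at most -1 or at least 1 on the log2 scale, a 2-fold difference, as a description of these libraries.

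Across the locus, the median peak held 126 reads with GFP and 71.8 with Prox1. The median log2 difference was -0.83, with quartiles of -1.25 and -0.23 and a range from -2.15 to 3.99. Differences were below 0 at 173 of the 214 peaks (80.8%), against 72.3% of all peaks. Of the 214 peaks, 90 (42.1%) were lower by at least 2-fold, against 24.4% of all peaks in the table. In the other direction 18 (8.41%) were higher, against 8.33% of all peaks. The median difference was -0.42 over all peaks, -0.49 over all peaks outside promoters and -0.40 over the other 7448 peaks of chromosome 15, where 23.1% were lower and 8.02% higher. Summed reads in the locus were 0.622 times as many with Prox1 as with GFP, and over all peaks 0.751 times.

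**Figure D1:**
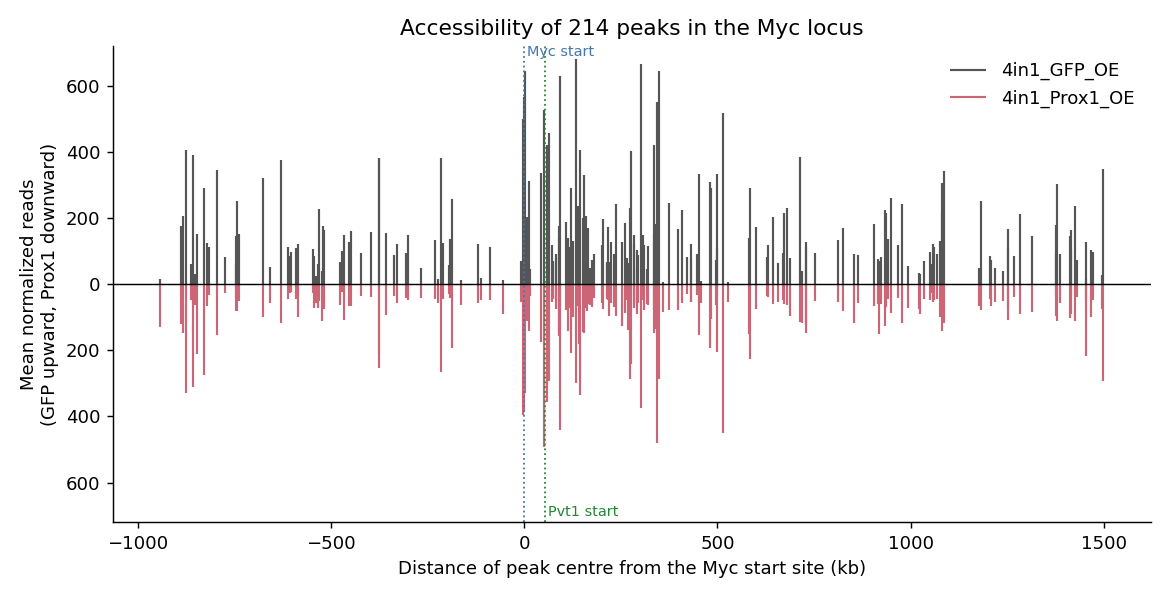
Mean normalized reads of the 214 peaks in 4in1_GFP_OE (grey, drawn upward) and 4in1_Prox1_OE (red, drawn downward) against distance from the Myc start site in kb; each line is 1 peak. The tallest lines, up to 681 reads with GFP and 492 with Prox1, stand between the Myc promoter and +516 kb, and lines are shorter with Prox1 at 173 peaks.

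The whole table was shifted towards lower values with Prox1, so the count was repeated with other placements of 0. With the median of all peaks set to 0, a shift of -0.42, 46 locus peaks were lower and 20 higher, against 8.64% and 13.4% of all peaks. With the median of the most accessible 10% of peaks set to 0, a shift of -0.26, the counts were 53 and 20, against 13.9% and 11.2%. With equal summed reads they were 46 and 20, against 8.8% and 13.3%. The lower share of the peaks past 2-fold went from 83.3% to 69.7% between the deposited scale and either the median or the equal totals, and over all peaks from 74.5% to 39.2% and 39.7%. At 1.5-fold, 124 peaks were lower and 20 higher, against 42.4% and 13.4% of all peaks. At 4-fold, 4 were lower and 6 higher, against 0.367% and 2.22%. Under each of these rules the share of lower peaks was larger in the locus than in the whole table.

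**Figure D2:**
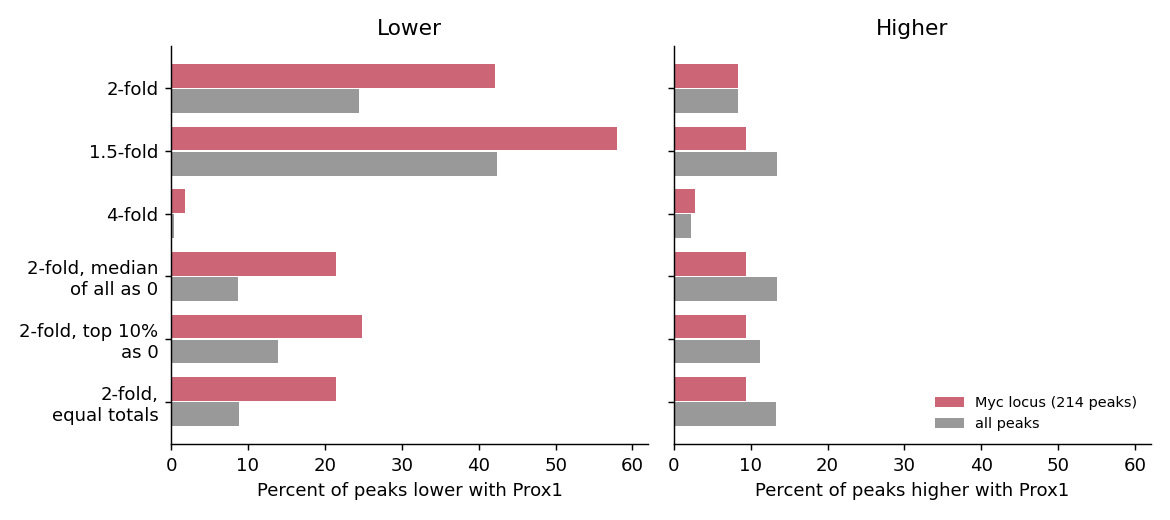
Percent of peaks lower (left) and higher (right) with Prox1 in the Myc locus (red) and in the whole table (grey), for 3 sizes of difference on the deposited scale and for 3 other placements of 0. The locus bars for lower peaks are longer than the grey bars in every row, at 42.1% against 24.4% for 2-fold on the deposited scale.

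Peaks of low level have differences that spread more, so the locus was also described in 4 level classes, each with 25% of all peaks by mean concentration. The SD of the difference over locus peaks was 1.43 in the lowest class and 0.514 in the highest. From the lowest to the highest class, the locus medians were -0.32, -0.998, -1.04 and -0.68. The medians of all peaks in the same classes were -0.10, -0.52, -0.61 and -0.38. The locus median lay lower in each class, by the most in the middle ones.

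In the Myc neighbourhood all 8 peaks were below 0, with a median difference of -0.56, and 1 was lower by at least 2-fold. Over all peaks 72.3% were below 0 and 24.4% lower, and over all promoter peaks 77.9% and 8.26%. Some of the 8 lie at start sites. With the median of all peaks set to 0, the 3 neighbourhood peaks at -9.5, -1.9 and +14.4 kb turned above 0, at 0.10, 0.08 and 0.09. Over the first exon of Myc, a peak at +0.1 kb held 564 reads with GFP and 387 with Prox1, a difference of -0.54. The highest peak of the neighbourhood lay in the first intron at +1.8 kb (chr15:61987041-61987241), within 1 kb of an internal start site of Myc, and held 643 reads with GFP and 330 with Prox1. That difference of -0.96, 1.95-fold lower, was the most negative at any start site of the locus. Both peaks were above the 95th percentile of all peaks for their level with GFP, at 95.8 and 97.4. The choice of the peak that stands for the Myc promoter therefore moves its difference from -0.54 to -0.96.

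Just upstream of Myc, the peak at -0.9 kb held 393 reads with GFP and 262 with Prox1 (-0.58). The peak at -1.9 kb, at the start site of the transcript Gm37947, held 499 and 395 reads (-0.34). It carries a match to CTCF, the zinc finger factor that bounds chromatin loops. At -9.5 kb a weak peak held 68.4 and 55.0 reads (-0.32). The differences on the upstream side were thus smaller than in the first intron.

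Downstream of the gene, the peak at +13.7 kb held 311 reads with GFP and 141 with Prox1, a difference of -1.15, and has an AP-1 match. The peak at +6.7 kb held 203 and 112 reads (-0.86) and has matches to both AP-1 and TEAD. A weak peak at +14.4 kb held 45.3 and 36.2 reads (-0.32). The 2 peaks with an AP-1 match had the most negative differences of the neighbourhood outside the gene.

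Pvt1 contained 58 peaks, of which 20 were lower (34.5%) and 2 higher (3.45%), against 24.4% and 8.33% of all peaks, with a median difference of -0.63. Its own promoter peak at +52.6 kb (chr15:62037881-62038081) held 528 reads with GFP and 492 with Prox1, a difference of -0.10 that turned to 0.32, 0.16 and 0.31 with the median of all peaks, the most accessible 10% and equal totals as 0. It was the highest peak of the whole locus with Prox1, and its difference was smaller than those at the Myc start sites. Other strong peaks of the gene body differed more. The peak at +133.8 kb, the highest of the locus with GFP, held 681 and 300 reads (-1.18). At +302.1 kb the levels were 666 and 375 reads (-0.83), and at +349.1 kb they were 646 and 288 reads (-1.16). The peak at +94.0 kb, near the start of the small RNA gene Gm27782, held 628 and 441 reads (-0.51). The lowest difference in Pvt1 was at +217.8 kb, where 172 reads with GFP stood against 46.6 with Prox1 (-1.89).

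Neighbouring peaks inside Pvt1 could differ widely. At +343.2 kb, where the printed sequence holds both TEAD and AP-1 matches, levels were 551 reads with GFP and 481 with Prox1, a difference of -0.20 that turned to 0.22, 0.07 and 0.21 under the same 3 placements of 0. Less than 10 kb away, the peak at +335.7 kb went from 421 to 149 reads (-1.49), also with an AP-1 match. At +360.0 kb, a site with 2 TEAD matches, 5.397 reads with GFP stood against 85.8 with Prox1 (3.99), the most positive difference of the locus.

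The deserts had lower medians than the sequence from Myc to the end of Pvt1. Over all peaks 24.4% were lower and 8.33% higher. Over the 146 desert peaks the median difference was -0.90, with 69 lower (47.3%) and 16 higher (10.96%). Over the 68 peaks of the Myc neighbourhood and the Pvt1 segment it was -0.61, with 21 lower (30.9%) and 2 higher (2.94%). The Pvt1 segment alone had 20 lower peaks of 60 and 2 higher. The desert windows were poorer in G and C, with a median of 43.3% against 48.8%, and lower in level, with a median of 117 against 161 reads with GFP, and the part of either in the difference was not tested.

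In the upstream desert the median was -0.92, with 28 of 60 peaks lower (46.7%) and 8 higher (13.3%), against 24.4% and 8.33% of all peaks. The lowest medians per 250 kb were here, at -1.28 for 20 peaks between -750 and -500 kb and -1.11 for 15 peaks between -500 and -250 kb. At the far end, the 13 peaks beyond -750 kb had a median of -0.33. The peak at -531.2 kb (chr15:61454102-61454302), whose printed sequence holds an AP-1 match, had 228 reads with GFP and 51.5 with Prox1, a difference of -2.15 and the most negative of the locus. The peak at -519.7 kb had 176 and 49.0 reads (-1.85), again with an AP-1 match. All 4 peaks of the locus that were lower by at least 4-fold lay in this desert. Apart from the one at -531.2 kb, they were at -604.5 kb (97.7 to 22.8 reads, -2.10), at -470.8 kb (100 to 24.8 reads, -2.01) and at -396.8 kb (157 to 39.0 reads, -2.01), the second of these with a TEAD match and the last with TEAD and RUNX matches. These 3 peaks lie outside the rule for named peaks and were picked after their values were seen.

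The upstream desert also held noncoding genes of unknown role. The 6 peaks inside Gm29904 had a median of -1.68, and 5 of them were lower. In D030024E09Rik 8 of 14 peaks were lower (57.1%) and 1 higher (7.14%), with a median of -1.13. Over all peaks 24.4% were lower and 8.33% higher. At the start site of Gm38563 (-827.7 kb) the peak held 291 reads with GFP and 275 with Prox1, a difference of -0.08 that turned to 0.34, 0.18 and 0.33 under the 3 other placements of 0. At -845.9 kb the levels were 153 and 213 reads (0.48), among the highest differences of peaks with at least the median level. Both lie beyond -750 kb, where 3 of the 13 peaks were lower by at least 2-fold (23.1%) and 2 higher (15.4%). The lower share there is near the 24.4% of all peaks.

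In the downstream desert the median was -0.89, with 41 of 86 peaks lower and 8 higher. At +407.2 kb the levels were 225 and 56.6 reads (-1.99), with an AP-1 match. At +680.5 kb they were 231 and 62.4 reads (-1.89), with a TEAD match, in an intron of the noncoding gene Gm41333, where 8 of 15 peaks were lower and 1 higher. All 3 peaks inside Gm30159 were lower, with a median of -1.58. In Gm41335 7 of 25 peaks were lower (28%) and 2 higher (8%), near the 24.4% and 8.33% of all peaks, and a peak at one of its start sites (+1494.4 kb) held 26.8 reads with GFP and 75.7 with Prox1 (1.498). The peak at +515.8 kb kept a high level in both groups, with 517 and 452 reads, and its difference of -0.20 turned to 0.22, 0.07 and 0.22 under the 3 other placements of 0. At the downstream end of the stretch, the last peak inside, at +1499.0 kb, held 348 and 292 reads (-0.26), and the first outside, at +1530.5 kb, 146 and 90.0 reads (-0.70). At the upstream end, the first inside was at -941.6 kb, with 14.4 and 130 reads (3.17), and the first outside at -988.6 kb, with 10.4 and 83.0 reads (3.00).

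**Figure D3:**
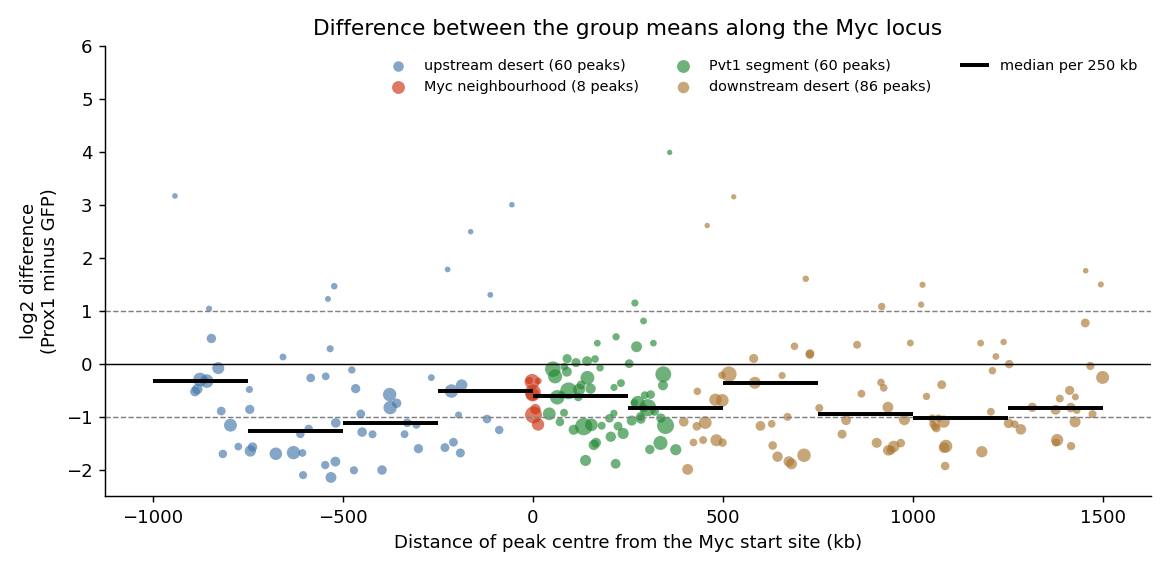
Difference of the group means (Prox1 minus GFP, log2) of each peak against distance from the Myc start site in kb, coloured by segment, with larger points for more reads with GFP, black bars for medians per 250 kb and dashed lines at -1 and 1. The lowest medians, -1.28 and -1.11, lie between -750 and -250 kb, and the points above 2 are small.

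Distance from Myc itself did not order the differences. Over the 214 peaks, the absolute distance and the difference had a Pearson r of -0.0020 and a Spearman rho of -0.047, as a description over peaks that share libraries. The medians of the 42 peaks within 250 kb downstream and of the 15 within 250 kb upstream were -0.61 and -0.51. Beyond +750 kb they were -0.94, -1.03 and -0.83 per 250 kb, and between +500 and +750 kb -0.36 over 17 peaks.

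Peaks whose gaps were at most 10 kb were joined into clusters. There were 26 clusters of 3 or more peaks with 144 peaks in all, and summed reads were lower with Prox1 in 24 of them. Summed reads over all peaks were also lower, at a log2 ratio of -0.41. Clusters were not formed over the whole table, so the 24 have no share to be set against. The median log2 ratio of sums was -0.76, with a range from -1.65 to 0.24. The cluster with the most reads with GFP lay in Pvt1 from +107 to +181 kb, where 17 peaks summed to 3556 reads with GFP and 2165 with Prox1 (-0.72). The cluster around the Pvt1 promoter, from +43 to +94 kb, had 11 peaks with 3042 and 2293 reads (-0.41). The cluster of the Myc neighbourhood itself had 8 peaks with 2727 and 1719 reads (-0.67). From +253 to +321 kb, 16 peaks summed to 2696 and 1896 reads (-0.51), and from +336 to +349 kb 5 peaks summed to 1950 and 1129 reads (-0.79). By ratio, the Myc cluster thus lay near the median of the clusters.

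Outside these 5, the cluster with the next most reads lay in the downstream desert from +1051 to +1087 kb. Its 10 peaks summed to 1590 reads with GFP and 682 with Prox1 (-1.22), and 9 of the 10 were lower, against 24.4% of all peaks. The lowest ratio, -1.65, was that of 3 peaks inside Gm29904, which summed to 294 and 93.6 reads. These 2 clusters were picked after their values were seen.

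Peaks were also sorted by their level with GFP, a value that enters the difference itself, so the counts by this level are a description only. All 35 peaks with at least 300 reads with GFP were below 0, and 13 of them (37.1%) were lower by at least 2-fold, against 95.3% and 25.6% of all peaks at that level. The median difference of these strong peaks was -0.70 over 8 in the upstream desert, -0.58 over 5 around Myc, -0.74 over 13 in the Pvt1 segment and -1.09 over 9 in the downstream desert. At the other end, all 9 peaks with under 20 reads with GFP were higher by at least 2-fold, and no locus peak had under 20 reads with Prox1. The share over all peaks with under 20 reads with GFP was not computed, so this count is not a result about the locus. By mean level over both groups, the lowest class of 50 locus peaks had 13 lower (26.0%), 13 higher (26.0%) and 30 below 0 (60.0%), against 17.4%, 20.9% and 53.5% of all peaks of that class. A peak must have reads in some library to be listed, so a peak near 0 in one group can only be listed with more in the other. Among the 10 highest peaks of each group, 8 were shared.

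**Figure D4:**
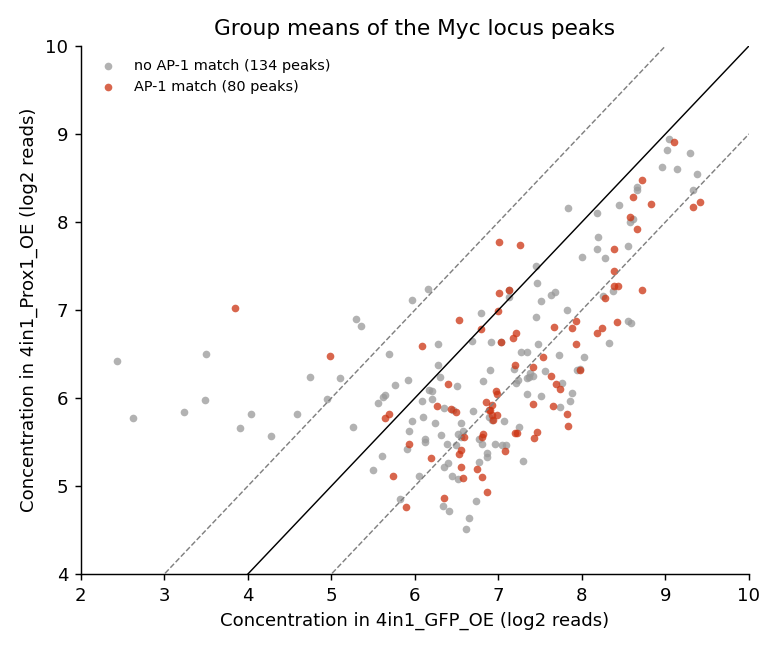
Concentration (log2 mean normalized reads) of the 214 peaks in 4in1_GFP_OE (horizontal) and 4in1_Prox1_OE (vertical), in red for the 80 peaks with an AP-1 match and grey for the others. The solid line marks equal levels and the dashed lines 2-fold differences. Red points gather under the lower dashed line, where 44 of 90 peaks hold the match, and 2 of the 18 points above the upper line do.

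The level with GFP enters the difference that defines the 18 higher peaks, so their low level with GFP is a description only. Over all peaks, 20.9% of the lowest class by mean level and 0.297% of the highest class were higher. The median level of the 18 was 21.7 reads with GFP and 75.3 with Prox1, and the highest of them with GFP held 71.3 reads. The 6 that were higher by at least 4-fold lay at +360.0, -941.6, +528.4, -55.2, +458.7 and -163.7 kb. The peak nearest to Myc of the 18, at -55.2 kb (chr15:61930130-61930330), went from 11.3 to 90.7 reads (3.00). The one at +528.4 kb went from 6.16 to 54.8 reads (3.15). The highest of the 18 with Prox1, at +917.8 kb, went from 71.3 to 151 reads (1.08). All 18 stayed under the 330 and 387 reads of the Myc promoter peaks with Prox1. By segment, 8 were in the upstream desert, 8 in the downstream desert and 2 in the Pvt1 segment. Among peaks with at least the median level, the other most positive differences were at +1453.4 kb (128 to 219 reads, 0.77), -845.9 kb (0.48, above), +853.0 kb (92.1 to 118 reads, 0.36) and +272.8 kb (229 to 286 reads, 0.32). Of the 5 named for the most positive differences at that level, 1 passed 2-fold.

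AP-1 matches were more common in the locus than in the whole table, in 80 of 214 windows (37.4%) against 28.8%. Of all peaks outside promoters 31.3% held a match, and 95.8% of the locus peaks lay outside promoters. In the locus, AP-1 matches were in 48.9% of the lower peaks, 32.1% of the peaks between the thresholds and 11.1% of the higher peaks. Over the whole table these shares were 46.9%, 23.3% and 20.04%. The median difference was -1.06 over locus peaks with the match and -0.58 over those without, and over all peaks it was -0.82 and -0.29. The gap between peaks with and without AP-1 was thus of like size in the locus and in the table, and locus peaks without the match still lay lower than table peaks without it.

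TEAD matches were in 56 locus windows (26.2%) against 20.1% of all peaks and 21.4% of those outside promoters. In the locus, 25 of the 90 lower peaks (27.8%) and 4 of the 18 higher peaks (22.2%) held a match. Over the whole table TEAD matches were in 26.7% of the lower and 18.8% of the higher peaks. The downstream desert had the largest share of TEAD, 32.6%, and the upstream desert the smallest, 16.7%. The E-box, the sequence bound by Myc and Max, was in 7 windows (3.27%) against 3.82% of all. Those 7 peaks had a median difference of -0.26, and 1 (14.3%) was lower by at least 2-fold, near the median of -0.21 and the share of 15.3% over all peaks with an E-box. RUNX matches were in 14 windows (6.54%) against 6.49%. FOXA matches were in 8 windows (3.74%) against 2.65% of all, with 3 of them among the 18 higher peaks, at -111.9, -539.1 and +268.5 kb. Over the whole table FOXA matches were in 3.53% of the higher peaks, and the locus count is too small to be set against that share.

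CTCF matches, with at most 1 mismatch, were in 4 locus windows (1.87%) against 10.5% of all. They lay at -888.8, -882.8, -1.9 and +121.4 kb, and their differences were -0.52, -0.48, -0.34 and -0.49. None of the 4 was past 2-fold, and of all peaks with a CTCF match 5.51% were lower and 3.89% higher. HNF4 matches were in 0 windows, against 0.303% of all. A Prox1 consensus, with at most 1 mismatch, was also in 0 windows, against 0.305% of all. A window without a match holds no such letters, which says nothing of whether the factor binds there.

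Genes of the Myc network were described by the promoter peak with the highest mean level within 1 kb of a start site, which for Myc was the first-intron peak. The difference of Myc (-0.96) was at the 7.28th percentile of the 22427 genes with a promoter peak. Of these genes 6.64% were lower and 2.55% higher by at least 2-fold, with a median of -0.21. All 38 other network genes had a promoter peak, and 0 were lower and 0 higher by at least 2-fold. Of the 38, 35 (92.1%) were below 0, against 80.5% of all genes with a promoter peak, and the median was -0.19. The median network promoter thus differed little from the median promoter. The first-intron peak of Myc lay below the range of the network, while the first-exon peak (-0.54) lay within it.

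Among the 10 partners and antagonists, Max, the obligate partner of Myc, had 898 reads with GFP and 752 with Prox1 (-0.26). Mxd1, a Max partner that opposes Myc, had 952 and 828 reads (-0.20). Mlxip and Mlxipl, glucose-sensing factors of the related Mlx branch, stood at the ends of the network. Mlxip had 913 and 526 reads (-0.80), and Mlxipl, which is prominent in liver, had 194 and 324 reads (0.74). With the median of all peaks set to 0, 1 network promoter, that of Mlxipl, was higher by at least 2-fold. The paralogs Mycn (-0.28) and Mycl (-0.10) had 213 and 328 reads with GFP.

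Of the 6 regulators of the Myc protein, Fbxw7, the ubiquitin ligase subunit that marks it for destruction, had 702 and 594 reads (-0.24). Usp28, a deubiquitinase that opposes Fbxw7, had 822 and 837 reads (0.03). Of 16 induced targets, 15 were below 0, with a median of -0.18. Ccnd2, a cyclin of the first gap phase, had 640 and 407 reads (-0.65), and Tert, the telomerase catalytic subunit, had 280 and 331 reads (0.24). Odc1, the first enzyme of polyamine synthesis, and Ncl, a nucleolar protein, had differences of -0.23 and -0.16. All 4 repressed targets were below 0, from -0.55 for Cdkn2b, an inhibitor of cyclin-dependent kinases, to -0.06 for Cdkn1a, another such inhibitor. Over all genes with a promoter peak 80.5% were below 0, so neither count is a result about its list.

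**Figure D5:**
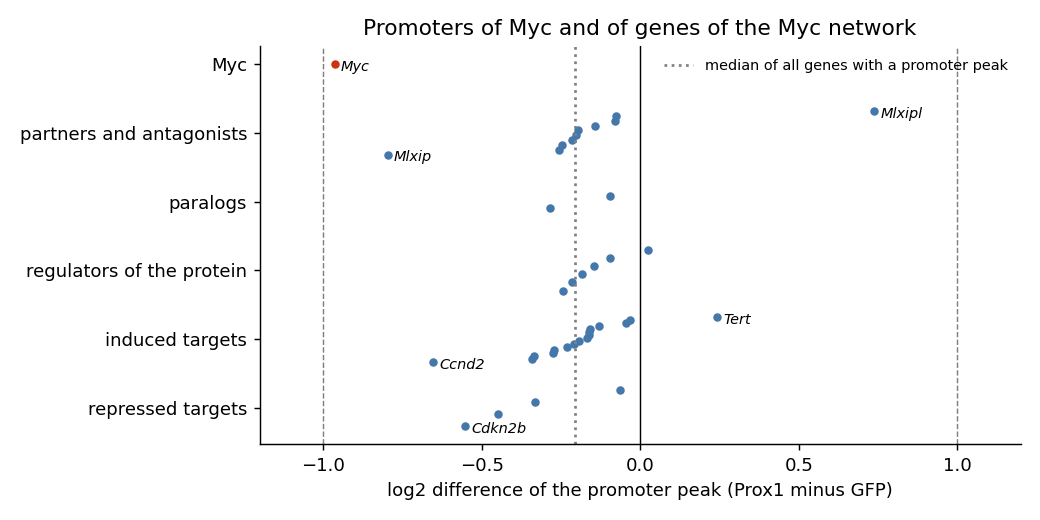
Difference of the promoter peak (Prox1 minus GFP, log2) of Myc (red) and 38 network genes (blue) by list, with dashed lines at -1 and 1, a solid line at 0 and a dotted line at -0.21, the median of all genes with a promoter peak. Myc at -0.96 lies left of every network gene, of which Mlxip at -0.80 and Mlxipl at 0.74 are the ends.

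Promoters of cell type markers gave the setting of these values. All 12 fibroblast markers had a promoter peak, with summed reads of 4447 with GFP and 3353 with Prox1, and 11 were below 0, against 80.5% of all genes with a promoter peak, of which 6.64% were lower and 2.55% higher by at least 2-fold. Prrx1, a homeodomain factor of mesenchyme, was the 1 lower by at least 2-fold (-1.27). Of 8 hepatocyte markers 1 had a promoter peak, Apob (289 to 246 reads), and Alb, Afp, Ttr and Hnf4a had none. Of the endothelial markers 3 of 4 had one, with summed reads of 823 and 590. Pecam1, an adhesion molecule of endothelium, was the 1 lower by at least 2-fold (304 to 101 reads, -1.59), while Kdr had 458 and 447 reads (-0.03). Of the immune markers 1 of 4 had one, Cd68, with 437 and 308 reads. All 4 epithelial markers had one, with summed reads of 739 and 949. Epcam was higher by at least 2-fold (1.00), and the differences of Krt18, Cdh1 and Krt8 were 0.74, 0.13 and -0.76. The part of such shifts between cell types in the values of the Myc locus was not tested.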

How the data were processed

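From the study's methods, reads were trimmed (Trimmomatic 0.38), aligned to mm10 (Bowtie2 2.3.4.3), filtered (SAMtools 1.10, Picard 2.18.16, bedtools 2.27.1) and recalibrated for Tn5 bias. The methods name MACS2 as peak caller and the reporting summary Genrich. The concentrations deposited by the authors are log2 means of normalized reads per group, from DiffBind 3.4.11, in windows of 201 bases. According to the methods, DiffBind followed its own vignette of that version, and no normalization setting is named. The authors' own fold changes, p-values and FDR, and 2 lists of enriched peaks, were not used.

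Here concentrations were turned into reads, subtracted between groups and compared with a threshold of 1 on the log2 scale. No test was run without values per library. Replicates could not be compared for duplicates, depth is unknown, and the study's reporting summary calls its replicates independent and biological, while the labels give only replicate numbers. Annotation came from GENCODE M21 and sequence from GRCm38.p6. No peak lay beyond a chromosome end. Myc and Pvt1 have no entry in the promoter table from RefSeq. Motifs were consensus letters matched on both strands, with 1 mismatch for CTCF and Prox1. Scripts, tested on simulated data, ran in Python 3.11.15 (matplotlib 3.10.9, numpy 2.4.6, pandas 2.3.3, scipy 1.17.1).

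The members, gene lists and thresholds were chosen with earlier results of these data known. Named peaks were all within 10 kb of Myc, the 5 highest in each group, the 5 largest differences each way among peaks of at least median level, peaks at start sites and the 5 clusters with most reads. Any other peak was picked after its values were seen. Other thresholds, placements of 0, a filter on low levels, a pseudocount of 10 reads and other windows were tried as alternatives.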

Additional observations from a re-analysis of the deposited data

How the results depend on the processing

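The 90 lower peaks became 46 with the median of all peaks or equal totals as 0, 53 with the most accessible 10% as 0 and 4 at 4-fold. The 18 higher peaks became 6 at 4-fold and 5 of 164 once the 25% of peaks with the least mean concentration were dropped. The locus median of -0.83 became -0.41, -0.57 and -0.42 with the median of all peaks, the most accessible 10% and equal totals as 0. Under the same 3 placements the Myc neighbourhood had medians of -0.15, -0.30 and -0.15 and the Pvt1 segment of -0.21, -0.37 and -0.22. The upstream desert had -0.50, -0.66 and -0.51, and the downstream desert -0.47, -0.63 and -0.48. Under each of the 3, 1 network promoter was higher by at least 2-fold, against 0 on the deposited scale. The shifts of the medians follow from subtracting a constant. No locus or segment median changed sign. With the median of all peaks as 0, medians that turned above 0 included those of the lowest level class (0.10), of the peaks beyond -750 kb (0.09) and between +500 and +750 kb (0.06), of E-box peaks (0.15), of the network promoters (0.22), of the induced targets among them (0.24) and of all promoters (0.21), and in the whole table those of the other peaks of chromosome 15 (0.02), of peaks without AP-1 (0.13) and of the lowest and highest level classes (0.31 and 0.03). Of the 28 named peaks, 7 changed sign with the median of all peaks or equal totals as 0, and 4 with the most accessible 10% as 0. With 5 kb gaps there were 15 clusters in place of 26, with a median ratio of -0.76 in both. No replicate could be left out. No paired analysis was possible with the values used, since they are group means and carry no replicate numbers. Unknown depth limits the weakest peaks most, among them the 9 with under 20 reads with GFP, whose counting error cannot be given.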
